A study of Mus musculus with 19 samples.

Results

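Dio1 and 4 other genes of thyroid hormone handling were followed in mouse liver, 5 of the 51826 gene entries that were quantified. They are Dio1, which encodes type 1 iodothyronine deiodinase, the receptor genes Thra and Thrb, the transporter gene Slc16a10 and Klf9, a transcription factor gene that answers thyroid hormone. The genes were taken by name. Dio1 was put on the list because its lactation and involution differences in these same mice were already known, so the differences between stages are given for all 5 genes as a description. How many of the 5 passed a threshold is stated once, beside the share of all genes, and nothing is read from it.

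Liver RNA was sequenced from 19 Balbc female mice, all 12 weeks of age, in 3 reproductive stages. Of these, 7 were nulliparous (NUL), 6 were at lactation day 10 (LAC) and 6 were at involution day 6 (ID6), when the pups had been weaned. The labels name no genotype beyond the strain and no treatment, and each value is from a separate animal. The study asked how liver gene expression differs between these reproductive stages. Expression is given in TPM, the number of transcripts of a gene among 1000000 in that liver, a unit corrected for gene length, so levels of different genes can be set side by side. TPM keep no read number, so the depth is unknown and the error of a value is the spread between mice.

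Thyroxine (T4) is the main product of the thyroid gland, and deiodinases in other tissues remove iodine from it. Dio1 is a selenoprotein of liver, kidney and thyroid that can remove an outer ring iodine, which gives the active hormone T3, or an inner ring iodine, which gives inactive products. T3 and T4 enter cells through membrane transporters. Inside, T3 binds receptors that sit on DNA together with a retinoid X receptor, and with corepressors or coactivators they set the transcription of target genes.

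The mice carry animal numbers in their titles, and the values also differ between 2 ranges of these numbers. Numbers below 200 belong to 3 NUL and 3 LAC mice, and numbers of 200 or above to 4 NUL, 3 LAC and all 6 ID6 mice. No source calls these ranges a batch. Single mice are named by stage and number, as in LAC_102. Over NUL and LAC mice, with stage in the fit, 25.6% of 16179 genes differed between the ranges (limma on log2(TPM + 1), adjusted p under 0.05). Values are therefore also given within each range, and for ID6 against lower-numbered mice the stage and the range cannot be told apart.

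The libraries held the defining markers of liver. The 6 hepatocyte markers summed to 57820 to 93145 TPM in NUL, 98012 to 149367 in LAC and 78478 to 109703 in ID6 mice. The 10 most abundant genes took 25.7% to 28% of all TPM in NUL, 29% to 31.2% in LAC and 26.7% to 28.8% in ID6 mice, and TPM of the remaining genes share what is left. Genes of the thyroid follicle, among them Tg, were at or near 0, with a highest sum over 5 genes of 1.33 TPM in any mouse.

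Dio1 was the member that differed most between stages, and its 3 groups are best seen mouse by mouse. In NUL mice Dio1 ran from 29.51 to 80.32 TPM with a median of 62.69. In LAC mice it was 0.52, 0.58, 0.66, 3.59, 6.84 and 8.44 TPM. In ID6 mice it ran from 24.08 to 54.57 TPM with a median of 36.25. Each LAC mouse was below every NUL and every ID6 mouse, while the NUL and ID6 groups overlapped.

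**Figure D1:**
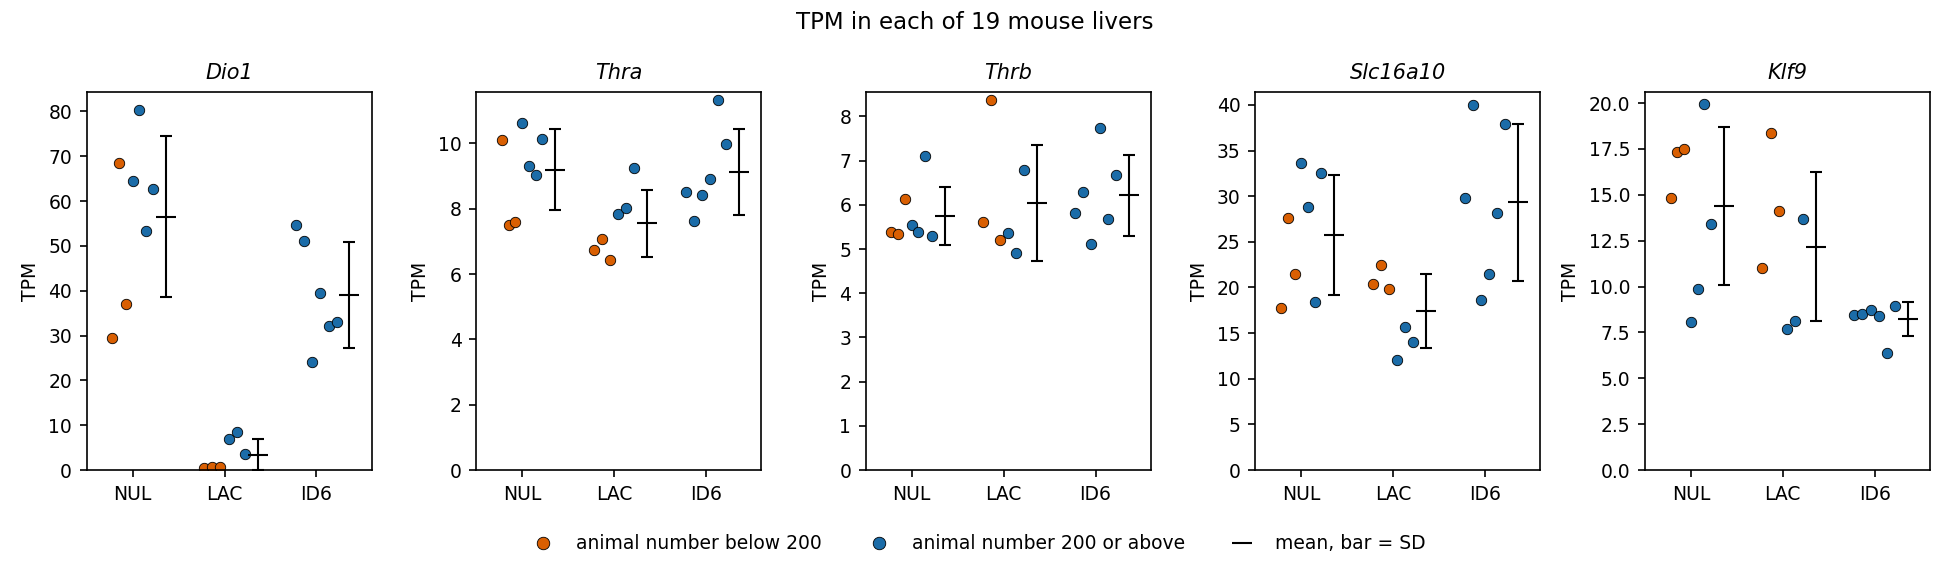
TPM (vertical axis) of Dio1, Thra, Thrb, Slc16a10 and Klf9 in each mouse by stage (NUL nulliparous, LAC lactation day 10, ID6 involution day 6). Points are mice, coloured by animal number range, and the bars are the mean ± SD. The 6 LAC values of Dio1 lie below all others, whereas the stage groups of the other genes overlap.

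Mean Dio1 was 56.6 ± 17.9 TPM in NUL (SD, n = 7), 3.44 ± 3.49 in LAC (SD, n = 6) and 39 ± 11.8 in ID6 mice (SD, n = 6). The LAC mean was thus 6.08% of the NUL mean, 16.4-fold lower, and the ID6 mean was 11.4-fold above the LAC mean. On the scale of log2(TPM + 1), which understates the change of a gene at low TPM, the difference was -4.04 (SE 0.40) for LAC minus NUL, 3.54 (SE 0.42) for ID6 minus LAC and -0.51 (SE 0.40) for ID6 minus NUL. Among genes above 0 TPM, Dio1 ranked 1680 of 23848 by mean level in NUL, 8648 of 22983 in LAC and 2282 of 23143 in ID6 mice. In bulk liver, fewer cells that carry a transcript and less of it per cell cannot be told apart.

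Within each range of animal numbers the LAC mice were again below all NUL mice, but by a different factor. Below 200, Dio1 was 45 ± 20.6 TPM in NUL and 0.587 ± 0.0702 in LAC mice (SD, n = 3 and 3), a 76.8-fold difference. From 200 up, it was 65.2 ± 11.2 TPM in NUL (SD, n = 4) and 6.29 ± 2.47 in LAC mice (SD, n = 3), a 10.4-fold difference. The 3 LAC mice of the lower range thus hold the 3 lowest Dio1 values of all 19 mice.

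**Figure D2:**
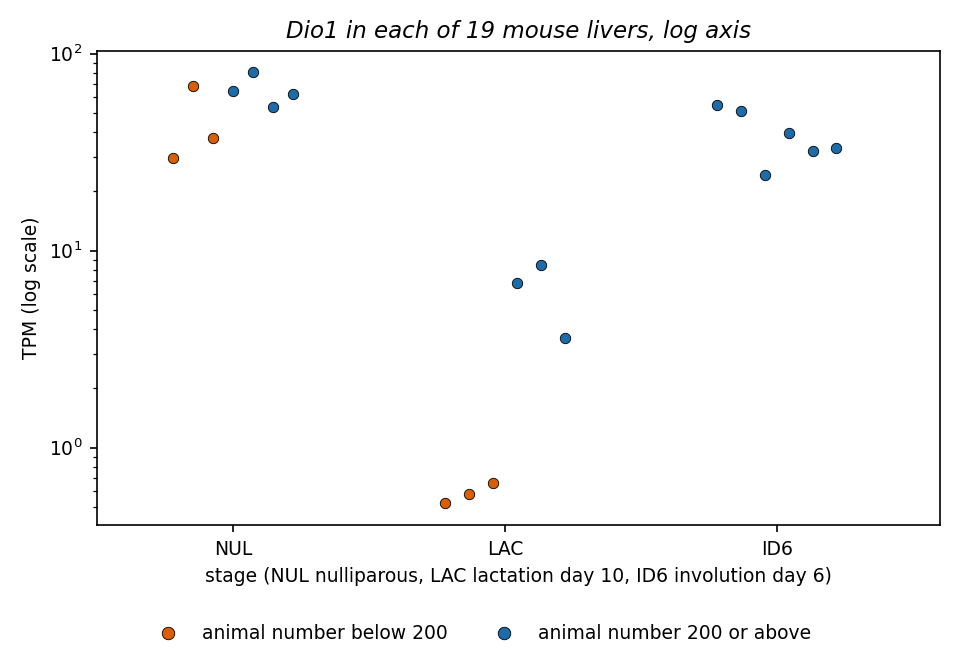
Dio1 TPM on a log axis in each mouse by stage, with points coloured by animal number range. The 3 LAC mice numbered below 200 sit between 0.52 and 0.66 TPM and the 3 numbered 200 or above between 3.59 and 8.44.

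The range was not used to choose the genes, so it was tested. With stage in the fit, Dio1 was higher in mice numbered 200 or above by 1.32 (SE 0.29) on the log2 scale (limma, adjusted p = 0.00466 over 16179 genes, 13 mice). The interaction, which asks whether the lactation difference itself depended on the range, was 1.54 (SE 0.40) for Dio1 and did not pass (limma, adjusted p = 0.179), against 0.111% of all genes that did. Over its alternatives the adjusted p of the interaction ran from 0.0674 to 0.329. Among mice numbered 200 or above alone, the differences of Dio1 were -3.23 (SE 0.27) for LAC minus NUL, 2.47 (SE 0.25) for ID6 minus LAC and -0.76 (SE 0.23) for ID6 minus NUL.

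Both deiodinases other than Dio1 were close to the lower end of the scale. Dio2, which makes T3 from T4 in brain, pituitary and brown fat, was listed at 0 in 15 of 19 mice and at no more than 0.03 TPM in the others. Dio3, which inactivates T4 and T3 and is best known from placenta and fetal tissue, reached at most 0.27 TPM. Neither passed the filter, a mean of 0.1 TPM or more. Iyd, which recovers iodine from iodotyrosines and is named here after its values were seen, did not pass the test in any stage contrast. The highest single value of Dio3, 0.27 TPM, was below the lowest value of Dio1, 0.52 TPM.

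The receptor genes differed far less in value between stages than Dio1. Thra, whose products include the receptor TRα1 and a splice form that does not bind T3, ran from 7.49 to 10.63 TPM in NUL (median 9.32), from 6.43 to 9.24 in LAC (median 7.45) and from 7.63 to 11.33 in ID6 mice (median 8.71). Mean Thra was 9.19 ± 1.24 TPM in NUL (SD, n = 7), 7.55 ± 1.03 in LAC (SD, n = 6) and 9.13 ± 1.32 in ID6 mice (SD, n = 6), and the log2 differences were -0.25, 0.24 and -0.01 for LAC minus NUL, ID6 minus LAC and ID6 minus NUL (SE 0.10 each). The LAC mean was the lowest, and over all mice the 3 groups overlapped. Below 200, Thra was 8.4 ± 1.48 TPM in NUL and 6.74 ± 0.315 in LAC mice (SD, n = 3 and 3), without overlap. From 200 up, it was 9.79 ± 0.735 TPM in NUL (SD, n = 4) and 8.37 ± 0.759 in LAC mice (SD, n = 3), with overlap.

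Thrb, which encodes the receptor form that is known as the main one in hepatocytes, had means closer still to each other. It ran from 5.3 to 7.1 TPM in NUL (median 5.39), from 4.91 to 8.37 in LAC (median 5.485) and from 5.11 to 7.74 in ID6 mice (median 6.055). The means of 5.74 ± 0.663 TPM in NUL (SD, n = 7), 6.04 ± 1.31 in LAC (SD, n = 6) and 6.22 ± 0.917 in ID6 mice (SD, n = 6) differed by less than 1 SD of any group. The log2 differences were 0.05, 0.05 and 0.09 (SE 0.11 each). For ID6 minus LAC, the sign of this small difference turned under median-ratio scaling (-0.08, SE 0.11).

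**Figure D3:**
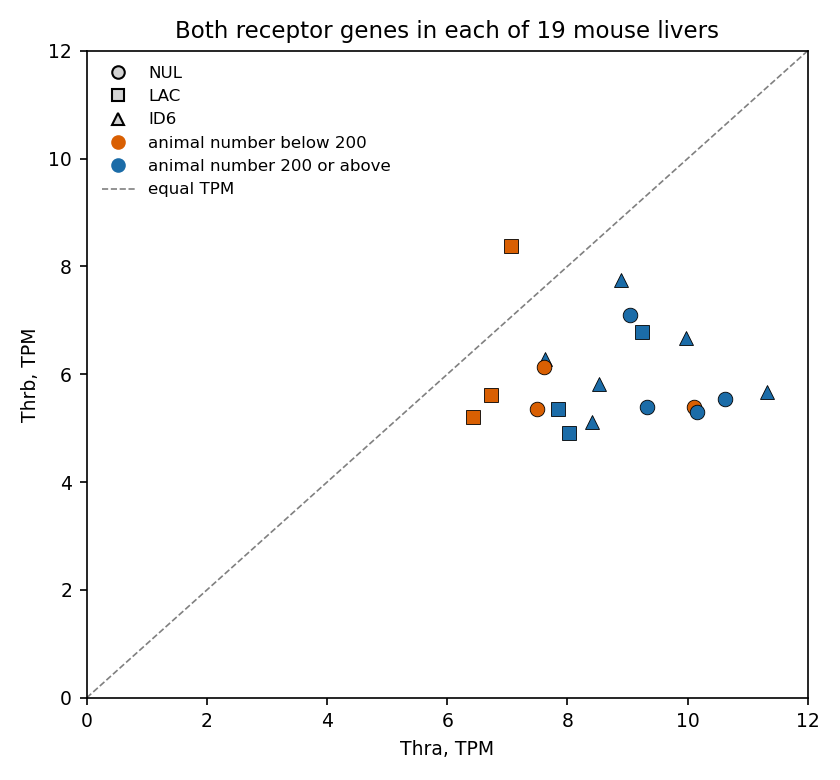
Thrb (vertical axis) against Thra (horizontal axis), both in TPM, in each of the 19 mice, with stage as the symbol, animal number range as the colour and a dashed line at equal TPM. All mice but 1 LAC mouse lie under the line, and the stages overlap.

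Thra was above Thrb in 18 of 19 mice, and the exception was mouse LAC_102, with 7.06 TPM of Thra and 8.37 of Thrb. The sum of both was 14.9 ± 1.25 TPM in NUL (SD, n = 7), 13.6 ± 1.75 in LAC (SD, n = 6) and 15.3 ± 1.58 in ID6 mice (SD, n = 6). Thrb made up 38.6% ± 4.67, 44.2% ± 5.63 and 40.6% ± 4.82 of that sum (SD, same n). TPM count all transcripts of Thra, including those for the splice form without hormone binding, so this share is of transcripts and not of receptors.

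Thra overlaps Nr1d1, the gene of the circadian repressor REV-ERBα, on the opposite strand of chromosome 11. In GENCODE M21 on GRCm38, Thra spans chr11:98740638-98769006, and 263 of its 4614 exonic bases (5.7%) lie in exons of Nr1d1. Whether the libraries kept the strand, and whether the counting used it, is not clear from the sources used here. Without strand, reads from these bases cannot be told apart between both genes. Nr1d1 ran from 3.01 to 34.35 TPM over all mice, a far wider range than that of Thra. Over deviations from stage means, the Pearson r of Thra and Nr1d1 was 0.25 across the 19 mice (both genes may share reads).

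Slc16a10, also called Mct10 or Tat1, encodes a carrier of aromatic amino acids that also moves T3 and T4. It ran from 17.75 to 33.66 TPM in NUL (median 27.6), from 12.1 to 22.44 in LAC (median 17.71) and from 18.6 to 40.02 in ID6 mice (median 28.98). Mean Slc16a10 was 25.8 ± 6.56 TPM in NUL (SD, n = 7), 17.4 ± 4.07 in LAC (SD, n = 6) and 29.3 ± 8.56 in ID6 mice (SD, n = 6). The LAC mean was 67.5% of the NUL mean, and 4 of 6 ID6 mice lay above every LAC mouse, with overlap between all groups.

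The lactation difference of Slc16a10 had a larger value in mice numbered 200 or above. In that range it was 28.4 ± 6.94 TPM in NUL (SD, n = 4) and 13.9 ± 1.77 in LAC mice (SD, n = 3), which did not overlap, a log2 difference of -0.95 (SE 0.25). Below 200 it was 22.3 ± 4.97 in NUL and 20.9 ± 1.38 TPM in LAC mice (SD, n = 3 and 3), a log2 difference of -0.07 (SE 0.15). The difference between these differences was -0.88 (SE 0.28) and did not pass (limma, adjusted p = 0.229, and 0.119 to 0.387 over its alternatives). Over all mice the log2 differences were -0.53 (SE 0.19) for LAC minus NUL and 0.70 (SE 0.20) for ID6 minus LAC.

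Klf9, also known as Bteb1, is raised by T3 in several tissues and by glucocorticoids, and its product binds GC-rich sites. It ran from 8.05 to 19.93 TPM in NUL (median 14.82), from 7.7 to 18.39 in LAC (median 12.34) and from 6.4 to 8.94 in ID6 mice (median 8.46). The ID6 group was the lowest and the tightest, at 8.23 ± 0.919 TPM (SD, n = 6), against 14.4 ± 4.3 in NUL (SD, n = 7) and 12.2 ± 4.06 in LAC mice (SD, n = 6). Over all mice Klf9, unlike Dio1, was thus not lowest in lactation. Among mice numbered 200 or above, this depended on the measure. There the LAC median (8.13 TPM, n = 3) was under the ID6 median (8.46), and the LAC mean (9.83) was above the ID6 mean (8.23).

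The log2 differences of Klf9 were -0.23 for LAC minus NUL, -0.46 for ID6 minus LAC and -0.69 for ID6 minus NUL (SE 0.20 for the last). Among mice numbered 200 or above, they were -0.32 (SE 0.24), -0.20 (SE 0.23) and -0.51 (SE 0.21). In both NUL and LAC the mean was higher below 200 (16.6 ± 1.51 and 14.5 ± 3.7 TPM, SD, 3 mice each) than from 200 up (12.8 ± 5.24 in 4 NUL and 9.83 ± 3.33 in 3 LAC mice, SD). Since every ID6 mouse is in the higher range, the low ID6 level and the range cannot be fully told apart.

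The range effect of Klf9 was -0.47 (SE 0.19) and did not pass with NUL and LAC mice (limma, adjusted p = 0.0867), but it passed without mouse NUL_226 (limma, adjusted p = 0.0193), without mouse LAC_240 (limma, adjusted p = 0.05 after rounding) and with all 19 mice (limma, adjusted p = 0.0456). Thra was higher from 200 up by 0.24 (SE 0.08), which passed (limma, adjusted p = 0.0354). That call was lost under median-ratio scaling (limma, adjusted p = 0.114) and without any one of mice LAC_36, LAC_133 and LAC_240 and mice NUL_4, NUL_13, NUL_220 and NUL_227 (limma, adjusted p from 0.0584 to 0.0855). Thrb (-0.04) and Slc16a10 (-0.09) did not pass (limma, adjusted p = 0.823 and 0.759). In all, 2 of the 5 genes passed, a share to be read against the 25.6% of all genes. Without mice of the lower range no range effect can be computed for ID6.

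For the members the thresholds are given for orientation only and support nothing, because Dio1 was chosen on these contrasts. Of the 5, Dio1 alone passed an adjusted p under 0.05 for LAC minus NUL, where 2.72% of 16230 genes passed as higher and 6.49% as lower. Dio1 and Slc16a10 passed for ID6 minus LAC, where 18.1% passed as higher and 4.73% as lower, and 0 passed for ID6 minus NUL (3.44% higher, 0.912% lower). With the log2 difference of at least 1 that the study also required, Dio1 remained in both of the first contrasts (0.746% and 1.93% of genes) and 0 genes of the 5 in the last (0.253%). These backgrounds depend on scaling. Under median-ratio scaling, 659 genes passed as higher and 840 as lower for LAC minus NUL in place of 441 and 1053, 1433 and 1220 for ID6 minus LAC in place of 2936 and 767, and 174 and 219 for ID6 minus NUL in place of 559 and 148. For the range effect the counts were 1866 higher and 2013 lower in place of 2659 and 1479.

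The start sites of the 2 members with the largest differences at involution differ in sequence. Dio1 lies at chr4:107291465-107307169 and Slc16a10 at chr10:40033532-40142258 (GRCm38, both on the minus strand). The bases just upstream of each gene are shown because the promoter is where receptors and other factors act, in RefSeq sequence of build GRCm38.p6, minus strand, chr4:107307170-107307418 for Dio1 and chr10:40142259-40142504 for Slc16a10. The receptor recognition hexamer AGGTCA would be in capitals, and neither holds it.
Dio1: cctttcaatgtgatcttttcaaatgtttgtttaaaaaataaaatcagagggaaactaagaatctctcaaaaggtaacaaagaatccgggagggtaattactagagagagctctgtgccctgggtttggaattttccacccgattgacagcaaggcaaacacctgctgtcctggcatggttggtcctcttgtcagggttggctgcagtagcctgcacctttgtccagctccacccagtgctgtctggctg
Slc16a10: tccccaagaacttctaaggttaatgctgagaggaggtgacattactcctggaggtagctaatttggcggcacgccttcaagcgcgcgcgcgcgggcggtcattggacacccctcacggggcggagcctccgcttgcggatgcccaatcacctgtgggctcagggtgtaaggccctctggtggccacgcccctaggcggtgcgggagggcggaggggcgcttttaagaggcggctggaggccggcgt

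The Dio1 window of 250 bases was 46.8% G or C with 2 CpG, below the median of 52.4% and 6 CpG over 32851 promoters of 27025 genes. The Slc16a10 window was 64.4% G or C with 21 CpG and the Klf9 window 59.6% with 18 CpG. Thrb (chr14:17660261-18038090) had 2 windows of 71.6% and 44%, and AGGTCA stood once in the first, 184 bases before the RefSeq start at which that window ends, which lies inside the GENCODE span given here. On either strand this hexamer was in 14% of all such windows, and a pair of them spaced by 4 bases, the classical receptor element, was in 5 windows (0.0152%), among them 0 of these genes. A match is a description of letters, and a window without one says only that they are not in those 250 bases.

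Other genes of thyroid hormone handling were tested in the same fit, as 6 lists with 45 genes besides the 5 members, of which 42 passed the filter. For LAC minus NUL, 6 rose and 3 fell, for ID6 minus LAC 8 rose and 6 fell, and for ID6 minus NUL 3 were higher and 0 lower (limma, adjusted p under 0.05, with 10 higher and 3 lower in that contrast at an unadjusted p under 0.05). Over all genes tested, 2.72% rose and 6.49% fell in the first contrast, 18.1% and 4.73% in the second and 3.44% and 0.912% were higher and lower in the third, so the 3 that fell at lactation and the 8 that rose at involution are close to the shares of all genes. The median log2 difference of the 42 was -0.02, 0.11 and 0.10, beside -0.0321, 0.0993 and 0.0652 over all genes tested. The lists were drawn up with earlier results of these mice known.

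**Figure D4:**
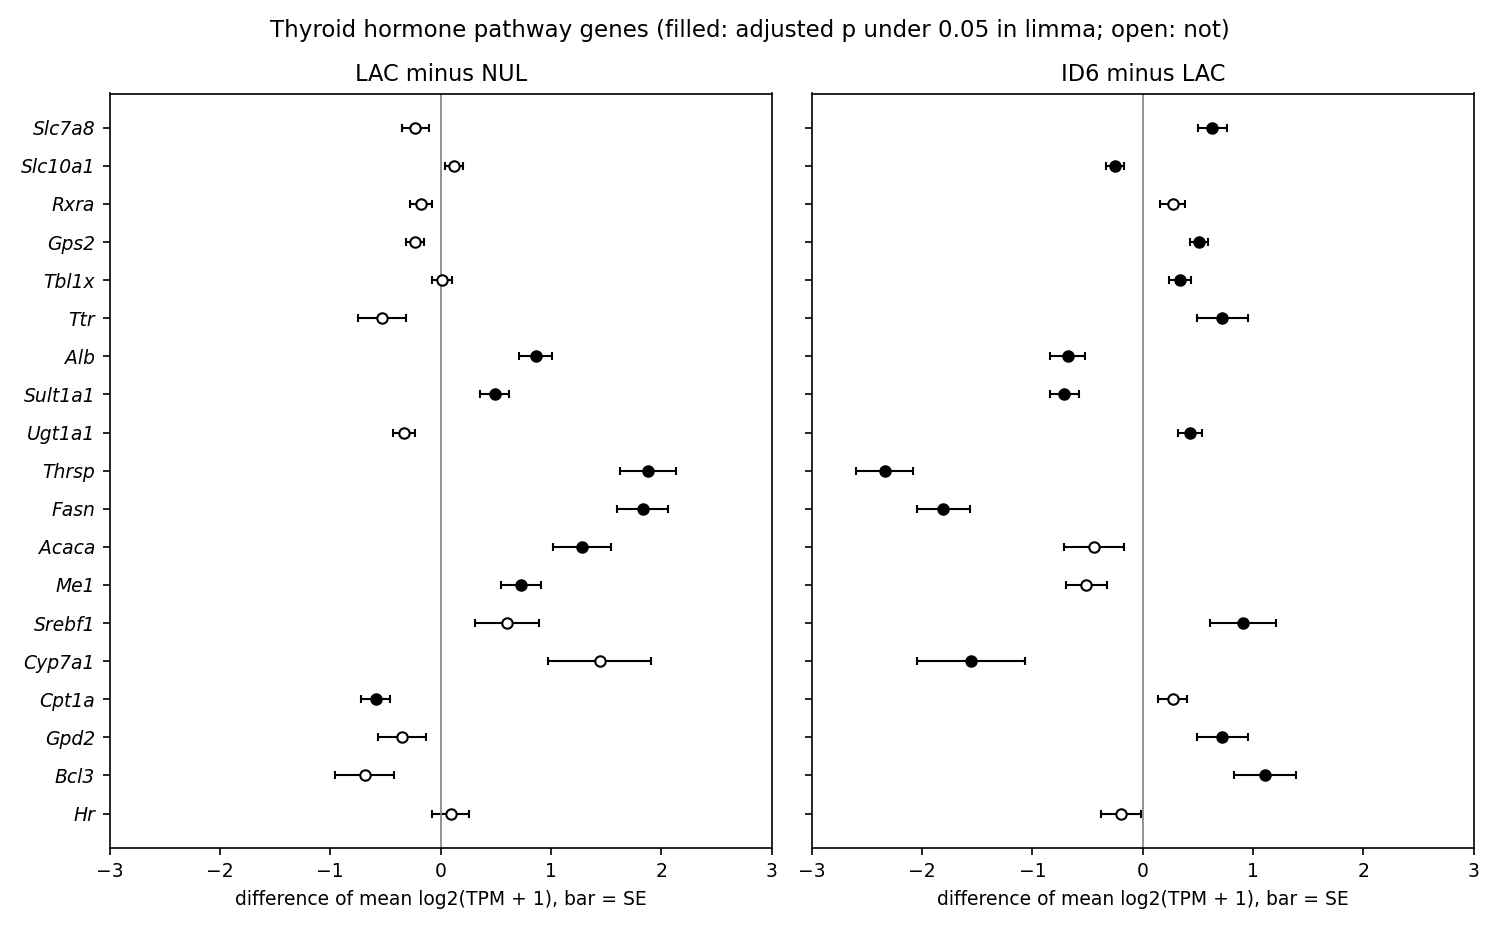
Difference of mean log2(TPM + 1) with its SE (horizontal axis) for 19 genes of the thyroid hormone lists, LAC minus NUL at left and ID6 minus LAC at right. Filled points passed an adjusted p under 0.05 in limma. Thrsp and Fasn lie at 1.88 and 1.83 on the left and at -2.34 and -1.81 on the right.

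Among 8 transporters tested besides Slc16a10, 1 fell at lactation and 0 rose (0 rose also at an unadjusted p under 0.05 in limma). It was Slco1b2, an uptake carrier of organic anions in hepatocytes, which ran from 270.9 to 493.6 TPM in NUL (median 328.6), from 194.7 to 310 in LAC (median 248.8) and from 215 to 311.1 in ID6 mice (median 278.5). The groups overlapped, with 4 of the 6 LAC mice below every NUL mouse. Its fall of 0.47 (SE 0.14, limma adjusted p = 0.0377) was lost under median-ratio scaling, with no filter, with only the 2 stages fitted, below 200 and without mouse LAC_133, LAC_200, LAC_213 or LAC_240 or mouse NUL_1, NUL_4, NUL_13 or NUL_227 (limma, adjusted p from 0.0514 to 0.0875). Slco1b2 was also lower from 200 up (-0.46, SE 0.09, limma adjusted p = 0.00166).

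At involution Slc7a8 rose and Slc10a1 fell, and the 6 other transporters tested did not pass over all mice. Of these, Slco1b2 passed as higher with the range as covariate (limma, adjusted p = 0.0144) and among mice numbered 200 or above (0.36, limma adjusted p = 0.0433). Slc7a8, which encodes the light chain LAT2 of an amino acid exchanger, was 0.98 ± 0.465 TPM in NUL (SD, n = 7), 0.653 ± 0.137 in LAC (SD, n = 6) and 1.56 ± 0.222 in ID6 mice (SD, n = 6), and every ID6 mouse was above every LAC mouse (log2 difference 0.63, SE 0.13, limma adjusted p = 0.00149). Slc10a1, the bile acid carrier NTCP, was 507 TPM in LAC and 428 in ID6 mice on average (log2 difference -0.25, SE 0.08, limma adjusted p = 0.0299), a call lost without mouse ID6_201, ID6_209, ID6_216 or ID6_232 or mouse LAC_36 or LAC_102, and among mice numbered 200 or above (limma, adjusted p = 0.181).

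Of the 3 retinoid X receptor genes 0 passed in any stage contrast (limma), and at an unadjusted p under 0.05 there were 0 for LAC minus NUL, 2 for ID6 minus LAC and 1 for ID6 minus NUL. Rxra, the main partner in hepatocytes, was 93.2 ± 16.3 TPM in NUL (SD, n = 7), 81.2 ± 5.76 in LAC (SD, n = 6) and 98.6 ± 12.2 in ID6 mice (SD, n = 6), with log2 differences of -0.18 and 0.27 (limma, adjusted p = 0.312 and 0.0745). The second passed when only LAC and ID6 mice were fitted (limma, adjusted p = 0.0286). Rxra was also higher from 200 up by 0.28 (SE 0.07, limma adjusted p = 0.0148). In that range it averaged 106 TPM in NUL and 83.2 in LAC mice, without overlap (log2 difference -0.34, limma adjusted p = 0.0641). Below 200 it averaged 76.5 and 79.2 TPM, with overlap (0.05, limma adjusted p = 0.737). Of the 10 coregulators 0 passed at lactation (limma, 1 at an unadjusted p under 0.05) and 2 rose at involution, a share close to the 18.1% of all genes. Gps2, a subunit of the NCoR corepressor complex, rose by 0.51 (SE 0.08, limma adjusted p = 0.000127), with every ID6 mouse above every LAC mouse. Tbl1x, a further subunit of that complex, rose by 0.34 (SE 0.10, limma adjusted p = 0.0152), which was lost under median-ratio scaling (limma, adjusted p = 0.0566) and among mice numbered 200 or above (limma, adjusted p = 0.107).

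Against NUL, Gps2 (0.28, limma adjusted p = 0.0442) and Tbl1x (0.35, limma adjusted p = 0.0399) were higher in ID6 mice. Neither call held among mice numbered 200 or above (limma, adjusted p = 0.14 and 0.349). The call of Gps2 was lost without any one of 11 mice and that of Tbl1x without any one of 9, with adjusted p from 0.0503 and 0.0505 upward over all alternatives that lost them (limma).

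Of 7 binding and conjugation genes, Alb and Sult1a1 rose and Serpina7 fell at lactation, and at involution Ttr and Ugt1a1 rose and Alb and Sult1a1 fell. Serpina7, the gene of thyroxine-binding globulin, falls outside the rule for named genes. Both calls of Alb were lost when no filter on low values was used (limma, adjusted p = 0.129 and 0.195). Ttr, which encodes the thyroxine carrier transthyretin, was 7422 ± 1830 TPM in NUL (SD, n = 7), 5437 ± 2334 in LAC (SD, n = 6) and 8245 ± 374 in ID6 mice (SD, n = 6). Its rise at involution (0.72, SE 0.23, limma adjusted p = 0.0317) was lost among mice numbered 200 or above (limma, adjusted p = 0.516) and without mouse ID6_209, ID6_218, ID6_230 or ID6_232 or mouse LAC_36, LAC_102 or LAC_133. Ttr was also higher from 200 up by 0.83 (SE 0.14, limma adjusted p = 0.000753). For LAC minus NUL, Ttr did not pass over all mice (-0.53, limma adjusted p = 0.153). It passed as lower with the range as covariate (limma, adjusted p = 0.0103) and below 200 (-0.83, limma adjusted p = 0.0294).

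Sult1a1 encodes a sulfotransferase and Ugt1a1 a glucuronosyltransferase, 2 ways to mark iodothyronines for disposal, and they moved in opposite directions. Sult1a1 was 575 TPM in NUL, 813 in LAC and 489 in ID6 mice on average, with every ID6 mouse below every LAC mouse (log2 difference -0.71, SE 0.13, limma adjusted p = 0.000743). Among mice numbered 200 or above, the LAC mean was 679 TPM and the difference -0.47 (SE 0.13, limma adjusted p = 0.0273). Sult1a1 was also lower from 200 up (-0.34, SE 0.11, limma adjusted p = 0.0333), a call lost with no filter and without any one of 8 mice. Its rise at lactation of 0.49 (SE 0.13, limma adjusted p = 0.0197) was lost without mouse LAC_36 or LAC_102, with only the 2 stages fitted and among mice numbered 200 or above (0.35, limma adjusted p = 0.169). Ugt1a1 was 549, 441 and 589 TPM and rose by 0.43 at involution (SE 0.11, limma adjusted p = 0.00708, and 0.113 under median-ratio scaling). Genes of the Ugt1a cluster share exons, and RSEM divides their reads by estimation, so the value of Ugt1a1 is uncertain.

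Among 13 genes listed as T3 targets in liver or other tissue, besides Dio1 and Klf9, 4 rose and 1 fell at lactation (2.72% and 6.49% of all genes tested). The direction in which T3 moves each of them in mouse liver was not tested. Those that rose were Thrsp, Fasn, Acaca and Me1, which serve the making of fatty acids and which also answer insulin and carbohydrate. The one that fell was Cpt1a, which lets fatty acids into mitochondria for oxidation. Of the 5 that passed, the 4 genes of fatty acid making thus moved opposite to Dio1 and Cpt1a moved with it. The other 8 did not pass, and at an unadjusted p under 0.05 (limma) 5 of the 13 were higher and 3 lower.

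Thrsp (Spot 14), a lipogenic gene long used to read T3 action in liver, ran from 71.92 to 196 TPM in NUL (median 103.5), from 317.6 to 681.7 in LAC (median 417.6) and from 42.87 to 157.3 in ID6 mice (median 88.09). All LAC mice were above all others. It rose by 1.88 (SE 0.25) at lactation (limma, adjusted p = 0.000163) and fell by 2.34 (SE 0.26) at involution (limma, adjusted p = 8.06e-06). Both held within mice numbered 200 or above (1.75 and -2.29), and the first held below 200 (2.03). Thrsp was therefore highest in the stage in which Dio1 was lowest.

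Fasn, fatty acid synthase, was 66.4 ± 14.5 TPM in NUL (SD, n = 7), 244 ± 65.3 in LAC (SD, n = 6) and 71.3 ± 33.5 in ID6 mice (SD, n = 6). It rose by 1.83 at lactation (SE 0.23, limma adjusted p = 9.94e-05) and fell by 1.81 at involution (SE 0.24, limma adjusted p = 3.65e-05). Acaca, acetyl-CoA carboxylase, rose by 1.28 (SE 0.26, limma adjusted p = 0.00435) from 16.3 to 41.7 TPM, and Me1, malic enzyme, by 0.73 (SE 0.18, limma adjusted p = 0.0153) from 86.8 to 150 TPM. Cpt1a fell by 0.59 (SE 0.13, limma adjusted p = 0.00625) from 86.1 to 57.6 TPM, and every LAC mouse was below every NUL mouse. The lactation calls of Fasn, Acaca and Me1 passed in each range of animal numbers on its own, and that of Cpt1a passed from 200 up (limma, adjusted p = 0.0148) but not below 200 (limma, adjusted p = 0.054). For ID6 minus LAC, Acaca did not pass over all mice (-0.44, limma adjusted p = 0.256), but it passed as lower with the range as covariate (limma, adjusted p = 0.0364).

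**Figure D5:**
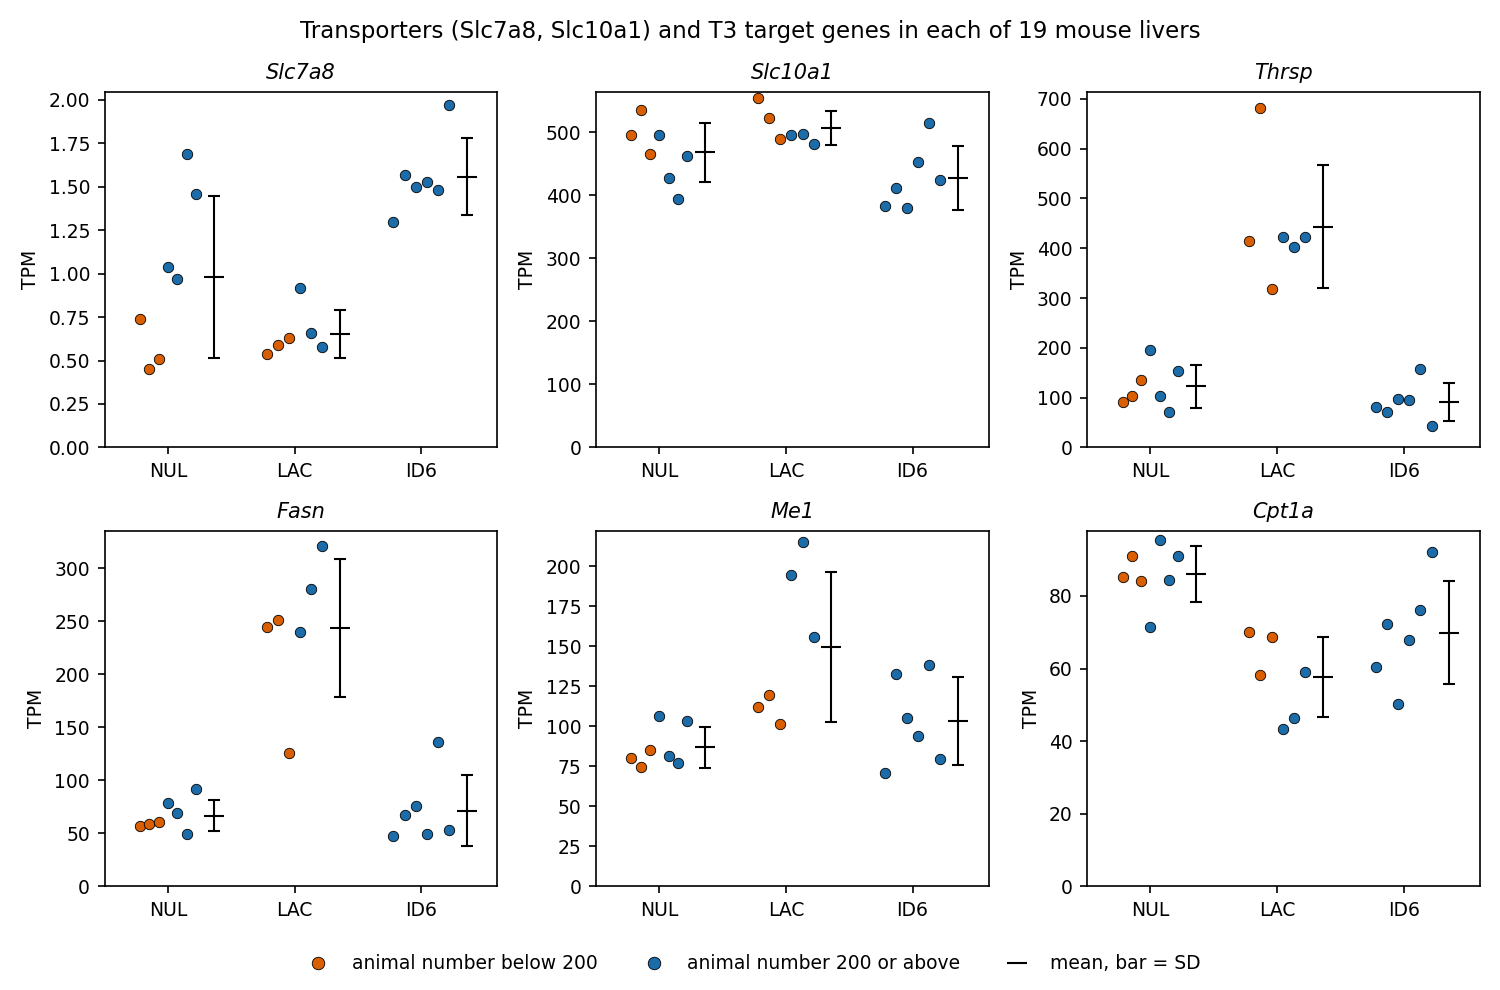
TPM (vertical axis) of the transporters Slc7a8 and Slc10a1 and of the T3 targets Thrsp, Fasn, Me1 and Cpt1a in each mouse by stage, coloured by animal number range, with bars for the mean ± SD. Thrsp and Fasn are high and Cpt1a is low in LAC mice, and Slc7a8 is higher in ID6 than in LAC mice.

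At involution 3 of the 13 T3 targets rose and 3 fell, beside 18.1% and 4.73% of all genes tested. Those of the 13 that fell were Thrsp, Fasn and Cyp7a1. Bcl3, a nuclear cofactor of NF-κB that T3 raises in liver, rose by 1.11 (SE 0.28, limma adjusted p = 0.00787) from 9.64 to 21.2 TPM, with no overlap between LAC and ID6 mice. Srebf1, the regulator of fatty acid synthesis genes, was 106 TPM in NUL, 146 in LAC and 270 in ID6 mice, and ID6 exceeded NUL by 1.51 (SE 0.29, limma adjusted p = 0.00865, and 0.0564 among mice numbered 200 or above). For LAC minus NUL, Srebf1 did not pass over all mice (0.60, limma adjusted p = 0.219). It passed as higher with the range as covariate (limma, adjusted p = 0.0194) and below 200 (1.01, limma adjusted p = 0.0211). Its rise from LAC to ID6 (0.91, limma adjusted p = 0.034) was lost among mice numbered 200 or above (0.59, limma adjusted p = 0.117), with the range as covariate (limma, adjusted p = 0.194), under median-ratio scaling, with no filter and without mouse ID6_216, ID6_230 or ID6_232 or mouse LAC_36, LAC_102 or LAC_133. The rise of Gpd2, mitochondrial glycerol phosphate dehydrogenase, from 8.87 to 15 TPM (0.72, limma adjusted p = 0.0283) was lost among mice numbered 200 or above (0.35, limma adjusted p = 0.288), with the range as covariate, under median-ratio scaling, with no filter and without mouse ID6_209, ID6_230 or ID6_232 or the same 3 LAC mice.

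Cyp7a1, which sets the pace at which bile acids are made from cholesterol, fell by 1.56 at involution (SE 0.49, limma adjusted p = 0.0278) from 69.2 to 29.4 TPM. That call was lost among mice numbered 200 or above (-1.02, limma adjusted p = 0.264), with the range as covariate, with no filter and without mouse ID6_201, ID6_209, ID6_216 or ID6_218 or mouse LAC_36, LAC_102 or LAC_133. Mean Cyp7a1 was 25.9 TPM in NUL mice, and its lactation difference of 1.44 (SE 0.47) did not pass (limma, adjusted p = 0.0611), but it did with the range as covariate, with only the 2 stages fitted and without any one of 4 mice (limma, adjusted p from 0.0229 to 0.0488). Hr, the corepressor hairless and a T3 target known from brain and skin, was at 0.12 to 1.42 TPM over NUL mice and did not pass in any stage contrast over all mice (limma, adjusted p from 0.443 to 0.799). For ID6 minus LAC it passed as lower with the range as covariate (limma, adjusted p = 0.00425) and among mice numbered 200 or above (-0.49, limma adjusted p = 0.0305). In that range Me1 also passed as lower for ID6 minus LAC (-0.89, limma adjusted p = 0.00815), and Bcl3 (-0.88) and Ugt1a1 (-0.53) for LAC minus NUL (limma, adjusted p = 0.00181 and 0.00768), which over all mice did not pass. Srebf1, Gpd2, Bcl3 and Hr were also higher in mice numbered 200 or above, by 0.97, 0.72, 1.01 and 0.62 (limma, adjusted p = 0.00343, 0.00229, 0.000376 and 0.000952). So were Acaca and Me1, by 0.68 and 0.45 (limma, adjusted p = 0.0108 and 0.0154), and Cyp7a1 was lower (-0.85, limma adjusted p = 0.0449). The range call of Me1 was lost under median-ratio scaling (limma, adjusted p = 0.0537). That of Cyp7a1 was lost with all 19 mice, with no filter and without any one of 9 mice.

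Dio1 needs selenocysteine at its active site, and selenoprotein genes did not move together. Of 6 genes of selenocysteine insertion, 0 passed at lactation (limma, 1 at an unadjusted p under 0.05) and Trnau1ap rose by 0.35 at involution (SE 0.08, limma adjusted p = 0.00367, and 0.0959 under median-ratio scaling). Of 10 other selenoproteins, Gpx4 and Txnrd1 rose and Gpx1 and Msrb1 fell at lactation. The same 4 moved the opposite way at involution, where the rise of Msrb1 (0.24) was lost under median-ratio scaling (limma, adjusted p = 0.485). Both contrasts use the same LAC mice, so the opposite signs are not independent. Over all genes tested, 2.72% rose and 6.49% fell at lactation, and 18.1% rose and 4.73% fell at involution. Txnrd1, cytosolic thioredoxin reductase, was not picked by the rule for named genes.

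Gpx1, cytosolic glutathione peroxidase, was 3544 ± 364 TPM in NUL (SD, n = 7), 2542 ± 215 in LAC (SD, n = 6) and 3740 ± 331 in ID6 mice (SD, n = 6), and all LAC mice were below all others. It fell by 0.48 (SE 0.08, limma adjusted p = 0.00127) at lactation. Gpx4, which reduces lipid peroxides, was 413 ± 36.5, 548 ± 31.2 and 373 ± 26 TPM (SD, same n), with all LAC mice above all others. It rose by 0.41 (SE 0.06, limma adjusted p = 0.000554, and 0.0792 below 200). Msrb1, a methionine sulfoxide reductase, was 457, 360 and 426 TPM and fell by 0.34 (SE 0.06, limma adjusted p = 0.00106). Against the 16.4-fold of Dio1, these differences were 1.39-fold, 1.32-fold and 1.27-fold.

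Of 5 listed liver transcription factors, among them Hnf4a, which is known to act on Dio1, 0 passed in any stage contrast (limma). At an unadjusted p under 0.05 only Hnf4a did, higher in ID6 than in NUL mice. The genes whose levels were most like those of Dio1 over the 19 mice, among 11604 genes averaging 1 TPM or more, were Lect2 (Pearson r = 0.96 of log2(TPM + 1)), Clcn7 (0.94), Atp6v0e2, Ang and Angptl6 (0.93 each). The most opposite were AC151971.2 (-0.96), Plxnb1 (-0.96) and Gm2a (-0.95). Lect2 was 386 TPM in NUL, 121 in LAC and 351 in ID6 mice on average, and Plxnb1 1.74, 7.75 and 2.17. These values are descriptions across mice of 3 stages, and a shared stage difference is enough to give them.

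Over deviations from stage means, which leave the stage out, the genes most like Dio1 were Atpif1 and Sub1 (0.88 each), and among the 5 members the largest values were those of Thrb with Klf9 (r = 0.58) and of Dio1 with Klf9 (r = -0.56), across 19 mice that share the animal number ranges. The most alike to the other members over all mice were Mrpl44 for Thra (0.87), Tnrc6b for Thrb (0.85), Tle1 for Slc16a10 (0.88) and Pla2g6 for Klf9 (0.85). Dio1 with Slc16a10 had r = 0.54 over all mice and -0.08 over deviations from stage means.

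Markers of several other liver cell types also differed between the stages. The 5 Kupffer cell markers summed to 146 to 280 TPM in NUL, 94.7 to 200 in LAC and 323 to 463 in ID6 mice, and 4 of 5 fell at lactation and 5 of 5 rose at involution (limma, adjusted p under 0.05). The 5 sinusoidal endothelial markers summed to 109 to 143, 61.1 to 113 and 147 to 163 TPM, and 1 fell and 3 rose. Of the 6 hepatocyte markers 1 rose at lactation, and 1 rose and 1 fell at involution. The 4 erythroid markers summed to 732 to 1488, 829 to 2052 and 124 to 562 TPM, and the 3 that passed the filter all fell at involution (median log2 difference -2.60). The 4 lymphocyte markers summed to 0.98 to 3.49, 0.66 to 1.61 and 2.4 to 4.8 TPM, and 1 fell at lactation and 4 rose at involution. The 4 neutrophil markers summed to 4.03 to 18.2, 4.04 to 8.84 and 12.4 to 20.8 TPM, and 3 rose at involution (median log2 difference 0.99 over the 4). Of the 5 stellate markers 1 fell at lactation and 0 passed at involution, and of the 4 cholangiocyte markers 0 passed in either contrast. Over all genes tested, 2.72% rose and 6.49% fell at lactation, and 18.1% rose and 4.73% fell at involution. The part of all these cell types in the differences of Dio1, Slc16a10 and Klf9 was not tested.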

How the data were processed

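The authors enriched poly(A) RNA from flash frozen liver, sequenced it with paired-end reads and, per the labels, quantified genes with RSEM 1.3.1 on GRCm38. They deposited TPM, rounded to 2 decimals. TPM add up to 1000000 per mouse, so read depth is lost. Reads shared by several genes were assigned by RSEM's estimate. The authors' own test used read counts and was not repeated. From the TPM, log2(TPM + 1) was tested with limma 3.58.1 (limma-trend, R 4.3.3, Benjamini-Hochberg) over genes averaging 0.1 TPM or more, with 1 mean per stage and all 19 mice in the fit, or NUL and LAC mice with stage and number range. The script was tested on simulated data. Of 171 pairs of mice, 0 had identical values.

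The members and lists were chosen with earlier results of these data known, and some genes of the lists are not reported here. Named genes are the members, genes always named (Dio2, Dio3, Rxra, Ttr, Thrsp, Me1, Hr, Gpd2 and Nr1d1), and from each list those past an adjusted p of 0.05 and a log2 difference of 1, with up to 3 others of smallest adjusted p that passed. Alternatives were median-ratio scaling, a pseudocount of 0.1 or 0.5, no filter or one at 1 TPM, only the 2 stages compared, the range as covariate, only mice numbered 200 or above, robust moderation, and each mouse left out. A fit of mice numbered below 200 was added after seeing the data. Promoters are RefSeq windows of GRCm38.p6, with 4 of 5 members matched. Gene positions are from GENCODE M21.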

Additional observations from a re-analysis of the deposited data

Results flagged for a closer look

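A value was far from the others of its stage, by the gap to its neighbour over the range of the group, in 11 of 114 groups looked at, over 38 genes. The cut-offs give about 1 in 20 by chance for normally distributed values, which TPM need not be, so no excess is read from this. Among the members this was Klf9 in ID6 mice (0.78), where mouse ID6_230 had 6.4 TPM and the next mouse 8.38. The same mouse was highest for Nr1d1 (0.689, 34.35 TPM against 14.4) and for Fasn in ID6 (0.676, 135.8 against 75.9 TPM). In LAC mice, Slc7a8 was highest in mouse LAC_200 (0.684, 0.92 against 0.66 TPM) and Thrsp in mouse LAC_102 (0.711, 681.7 against 422.8 TPM). Alb in ID6 was highest in mouse ID6_216 (0.698), Cyp7a1 in NUL in mouse NUL_13 (0.847) and Mt2 in NUL in mouse NUL_221 (0.674). For Dio2 the values were 0.667, 1 and 1 in NUL, LAC and ID6, where nearly all mice were listed at 0. Dio1, Thra, Thrb and Slc16a10 had no such value in any stage. The rule looks for a single far value, so it could not flag the split of the LAC values of Dio1 between the ranges.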

How the results depend on the processing

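Among mice numbered 200 or above, Dio1 was -3.23 for LAC minus NUL and 2.47 for ID6 minus LAC, and Slc16a10 was -0.95 for LAC minus NUL, against -0.07 below 200. The range effect of Thra was 0.17 under median-ratio scaling and no longer passed, and that of Klf9 was -0.47 with all 19 mice and passed. Without 1 mouse at a time, the Thra effect ran from 0.21 to 0.3 and the Klf9 effect from -0.59 to -0.39. The 6 genes of the lists that rose at lactation ran from 5 to 7 without 1 mouse. The 3 that fell became 8 with the range as covariate, 5 with a filter at 1 TPM or from 200 up, and 1 under median-ratio scaling, with no filter, with only the 2 stages and below 200, and 1 to 4 without 1 mouse. The 8 that rose at involution became 3 under median-ratio scaling and 5 with no filter (5 to 11 without 1 mouse), the 6 that fell were 4 to 7 without 1 mouse, and the 3 above NUL became 1 with the covariate, median-ratio scaling, no filter or only the 2 stages, 0 from 200 up, and 1 to 5 without 1 mouse. The cause was not tested. No called value of a member or named gene changed sign. No paired analysis was possible because the animal numbers are not shared between stages. Depth cannot be read from TPM, so how far it limits the low values of Dio1, Dio2 and Dio3 is unknown.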

Other observations

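Of 14 clock genes tested, Per3 rose at lactation (0.39, SE 0.11, limma adjusted p = 0.0296), and at involution Arntl (0.46) and Npas2 (1.01) rose and Per3 fell by 0.48 (limma, adjusted p = 0.0218, 0.0461 and 0.00491). Over all genes, 2.72% rose at lactation, and 18.1% rose and 4.73% fell at involution, shares against which these counts of 14 are to be read. Among mice numbered 200 or above the calls of Arntl, Npas2 and Per3 were lost (limma, adjusted p = 0.0649, 0.182 and 0.0649 at involution). The lactation call of Per3 was lost there and below 200 (limma, adjusted p = 0.485 and 0.0762). Arntl and Npas2 were also higher from 200 up, by 0.35 and 1.12 (limma, adjusted p = 0.0326 and 0.00513). For Arntl that range call was lost under median-ratio scaling (limma, adjusted p = 0.0914). Nr1d1, which overlaps Thra, did not pass in any stage contrast (limma, adjusted p from 0.734 to 0.928). Of 8 genes raised by glucocorticoids, as Klf9 is, Mt1 rose at lactation (1.34, SE 0.39, limma adjusted p = 0.037), and at involution Sgk1 rose by 1.08 and Mt1 fell by 2.33 and Mt2 fell by 2.52 (limma, adjusted p = 0.0147, 0.00042 and 0.00856). Mt1 and Mt2 are paralogs, and RSEM divides any reads they share by estimation. The rise of Mt1 at lactation was lost among mice numbered 200 or above (limma, adjusted p = 0.675), and the fall of Mt2 at involution likewise (limma, adjusted p = 0.235). The rise of Sgk1 was lost in that range (0.84, limma adjusted p = 0.0834) and with the range as covariate (limma, adjusted p = 0.0895). Leaving out 1 mouse also ended the involution calls of Arntl (3 of 19 mice) and Npas2 (12 of 19) and the lactation calls of Per3 (6 of 19) and Mt1 (9 of 19).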
